A study of Mus musculus with 2 samples.

Results

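The genes described here encode the enzymes of oxidative phosphorylation, measured by single-cell RNA sequencing in mouse lung cells. Members were chosen by gene symbol, namely all symbols that start with Nduf, Uqcr, Atp5, Cox5, Cox6, Cox7 or Cox8, together with Cox4i1, Cyc1, Sdha to Sdhd and the protein-coding genes of the mitochondrial genome for complexes I, III, IV and V. Of 31053 genes in the files 106 fitted this rule, and 102 of them had at least 20 UMIs (unique molecular identifiers, which count captured transcripts) over both libraries. These 102 members are 89 nuclear and 13 mitochondrial genes. Cox7b2, Cox8c and a second identifier of Atp5o had 0 UMIs, Atp5s had 11, and these 4 were left out.

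The mice carried NG2-CreERTM, a tamoxifen-activated Cre driven by the promoter of the pericyte proteoglycan NG2 (gene Cspg4), and the Ai14 allele, which turns on the red fluorescent protein tdTomato after Cre has acted. This NG2tdT genotype and tamoxifen (2 mg per 30 g body weight, then 7 days of rest) were common to both groups. The Normoxia group was not treated further and the Hypoxia group breathed 10% oxygen for 21 days, a standard model of pulmonary hypertension. Each group was analysed as 1 library, although the labels speak of 3 replicates, and whether these were pooled is not stated, so no spread between animals could be measured and no test between groups was made. The 95% intervals in parentheses cover counting error only, and each ratio compares 1 library with the other.

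In oxidative phosphorylation, electrons pass from NADH through complex I, or from succinate through complex II, to complexes III and IV, which hand them to oxygen. The proton gradient that complexes I, III and IV build is used by complex V, the ATP synthase, to make ATP. The mitochondrial genome encodes a few hydrophobic core subunits and nuclear genes encode all others, so the complexes need the products of both genomes. Complex IV, cytochrome c oxidase, is known for tissue-specific isoforms, among them the heart and skeletal muscle forms Cox6a2, Cox7a1 and Cox8b. Lung endothelial cells are regarded as glycolytic cells with a modest mitochondrial content.

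After filters on detected genes and mitochondrial UMIs, 293 Normoxia cells with a median of 3135 UMIs and 453 Hypoxia cells with a median of 2818 UMIs were retained, and 1 barcode was retained in both libraries. The labels name sorted tdTomato cells, whereas Cspg4 itself had 1 UMI in the Normoxia and 2 UMIs in the Hypoxia cells. No cluster met the naming rule for pericytes. Clusters 2, 9 and 10 were endothelial cell-like (67 Normoxia and 158 Hypoxia cells, with 9 to 11 of 11 endothelial markers), and others were T or NK, B, fibroblast, macrophage or monocyte and neutrophil-like. Cluster 6 (46 and 54 cells, led by Plvap and Aplnr) had 10 of 11 endothelial markers. Kit, from the list of mast cell or basophil markers, was among its leading genes, so the naming rule left it without a name. Of that list Kit and Gata2 alone counted in cluster 6, as they did in the endothelial cell-like clusters 2 and 9. Clusters 1, 5, 8 and 13 were also unnamed.

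The cells with the highest share of UMIs from nuclear members were 4 cells of cluster 2 that were not endothelial by their markers. Each had UMIs for 13 to 15 of 26 genes of heart and skeletal muscle, while no other retained cell had more than 4, and each had 0 of 11 endothelial markers. They are called striated muscle cells here. In the Normoxia library 2 such cells had heart genes, with 121 and 219 UMIs of the atrial light chain Myl7, and 1 had skeletal muscle genes, with 234 UMIs of the skeletal actin Acta1. The single Hypoxia cell had 61 UMIs of Myl7.

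Nuclear members made up 18.9%, 18.1% and 7.13% of all UMIs of the 3 Normoxia cells and 14.9% of those of the Hypoxia cell. The next highest of all retained cells had 4.63%. Mitochondrial members were low in the same cells, at 0.501%, 0.836%, 0 and 0.612% of their UMIs, and 25 of the 742 other retained cells were also below 1%. The skeletal muscle cell thus had 189 UMIs from nuclear members and 0 from mitochondrial members. All retained cells had at most 5% mitochondrial UMIs, so muscle cells with a higher share would have been left out. The 3 Normoxia cells hold 1538 of the 6899 nuclear member UMIs of the Normoxia endothelial cell-like clusters, and the Hypoxia cell 779 of 14316. For this reason values of these clusters are given with and without the 4 cells, an alternative that was added after the data had been seen.

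**Figure D1:**
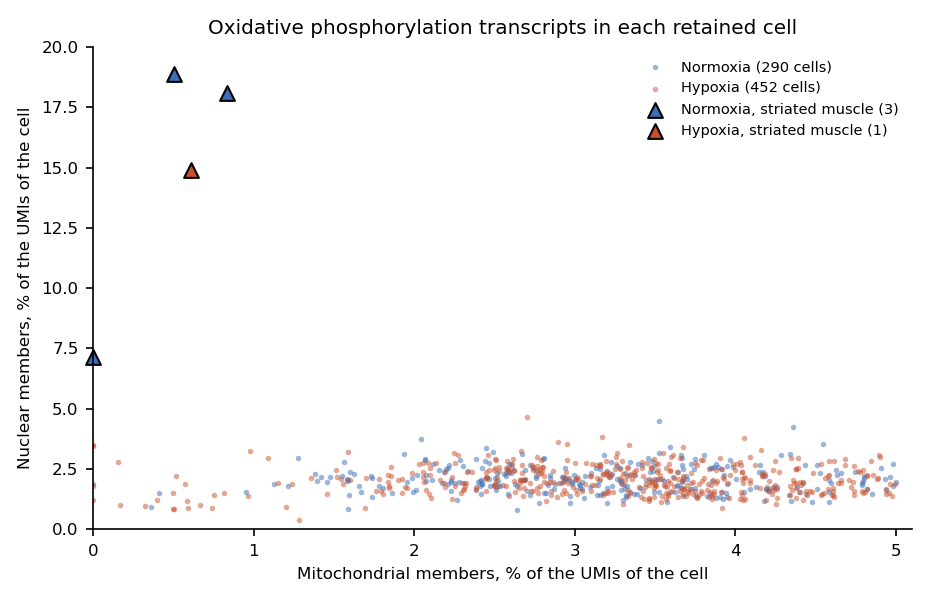
Share of all UMIs of a cell that came from mitochondrial members (x axis, %) and from nuclear members (y axis, %), with 1 point per retained cell coloured by library and triangles for the 4 striated muscle cells. The triangles lie between 7.13% and 18.9% on the y axis and below 1% on the x axis, and no other cell lies above 4.63% on the y axis.

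Among cells other than striated muscle, and with both libraries pooled, the nuclear share was highest in cluster 14, a macrophage or monocyte-like cluster led by Chil3 and Ear2 and made up of 15 Hypoxia cells, at 2.86% (2.75 to 2.98). In cluster 13 (10 cells, led by Ccl21a and the lymphatic marker Mmrn1) it was 2.62%, with 3.10% (2.84 to 3.37) in its 4 Normoxia cells, above the value of cluster 14. Endothelial cell-like clusters had similar levels, with 2.29% for cluster 9, 2.28% for cluster 2 and 2.22% for cluster 10, and cluster 6 had 2.32%. The intervals of clusters 6, 9 and 10 each overlapped that of cluster 2. Fibroblast-like cells had 1.95% and T or NK cell-like cells 1.88%, an order that was the opposite in Normoxia alone (1.98% and 2.24%). Without the deepest cell of each library the Normoxia values were 1.97% and 1.83%, so the opposite order was no longer seen. The lowest values were 1.52% in B cell-like and 1.37% in neutrophil-like cells, the latter with a median of 717 UMIs per cell.

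The mitochondrial share followed another order. B cell-like cells, low for nuclear members, had the highest mitochondrial share at 3.82% (3.75 to 3.90). Cluster 8, led by Retnla and C1qa, had 3.68% and cluster 14 had 3.53%. These are values of both libraries pooled. In Hypoxia alone cluster 13 had 3.90% and cluster 8 had 3.84%, above the 3.81% of B cell-like cells. Cluster 10, the endothelial cell-like cluster led by Emp2 and Car4, had 2.68%, below the 3.29% of cluster 2 and the 3.36% of cluster 9. Neutrophil-like cells had 1.53%. Barcodes above 5% mitochondrial UMIs had been left out in all clusters, so these shares are capped.

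**Figure D2:**
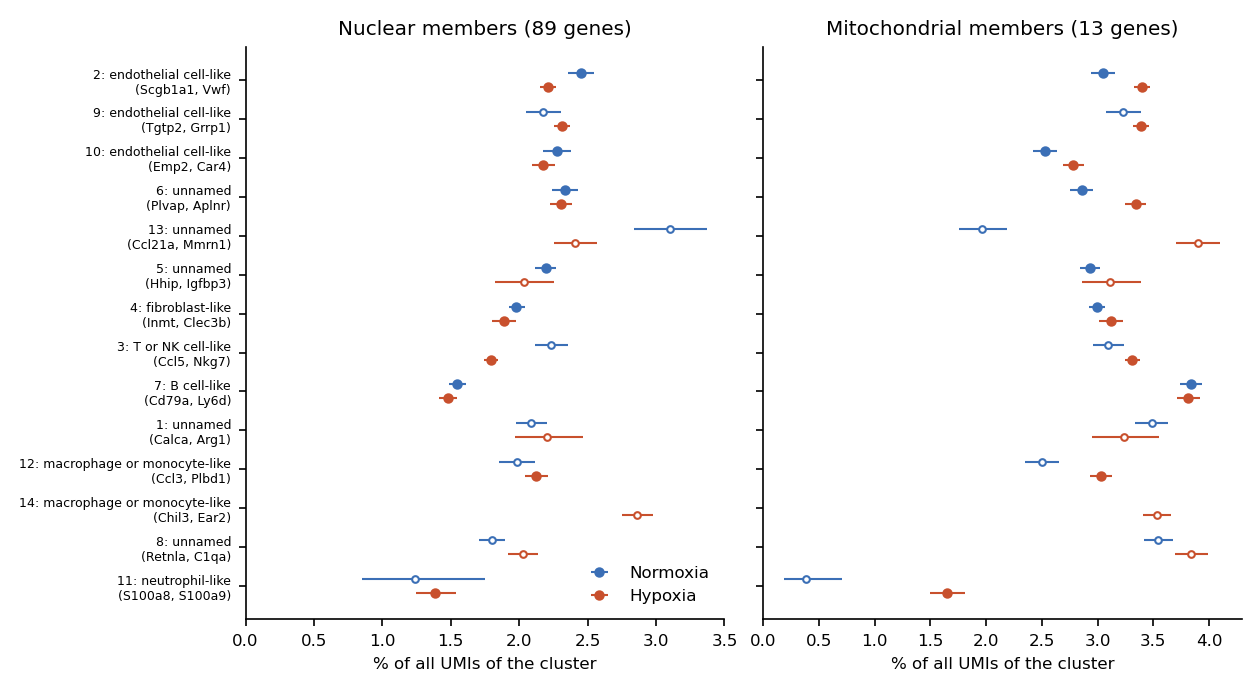
Nuclear (left) and mitochondrial (right) members as % of all UMIs of each cluster (x axis), by cluster with its leading genes (y axis), with Normoxia in blue, Hypoxia in red, 95% counting intervals as bars, and open symbols for fewer than 20 cells. The 4 striated muscle cells are left out of cluster 2. The nuclear share lies between 1.24% and 3.10%, and the mitochondrial share is higher in Hypoxia in the endothelial cell-like clusters and in cluster 6. In cluster 9, with 18 Normoxia cells, the log2 ratio of the mitochondrial share was 0.07 (-0.01 to 0.14).

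Over all retained cells the nuclear members held 2.197% of the Normoxia UMIs and 2.13% of the Hypoxia UMIs. The log2 ratio of Hypoxia to Normoxia was -0.04 (-0.07 to -0.02). Without the 4 striated muscle cells these values were 2.08% and 2.09%, and the log2 ratio turned to 0.01 (-0.01 to 0.03). Of 86 nuclear members with at least 20 UMIs in those cells, 1 was at least 1.5-fold higher and 2 at least 1.5-fold lower in Hypoxia, where 15.7% and 15.2% of all genes passed the same sizes. The median log2 ratio was -0.01 for the nuclear members and 0.04 for all genes. Higher was Ndufaf6, a complex I assembly factor with 7 and 20 UMIs, and lower were Ndufa4l2, described with the isoforms, and the assembly factor Ndufaf1. The assembly factors were named after their values were seen. A ratio above 0 was found for 39 of the 86 and for 53.6% of all genes. With the muscle cells counted, 1 of 89 was higher and 5 were lower (15.8% and 15.5% of all genes), and 34 had a ratio above 0 (53.7%).

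Over all cells without striated muscle, 7 of 86 nuclear members had an interval above 0 and 4 an interval below 0. The same was not counted over all genes. A few well-counted ones are given here. Cox5a, a nuclear subunit of complex IV, was at 176 CPM (UMIs per 1000000 UMIs) in the Normoxia library and at 258 CPM in the Hypoxia library (log2 ratio 0.55, 0.30 to 0.80). Uqcrq, a small subunit of complex III, was at 237 and 304 CPM (0.36, 0.14 to 0.58), and Ndufa8 of complex I at 147 and 187 CPM (0.34, 0.06 to 0.63). Lower in Hypoxia was Cox5b, at 356 and 284 CPM (-0.33, -0.52 to -0.13). Cox5a and Cox5b, both nuclear subunits of complex IV, therefore differed in opposite directions. The cell types made up unequal parts of the libraries, and the part of this in these ratios was not tested.

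In endothelial cell-like cells nuclear members held 2.87% of the UMIs (2.80 to 2.94) for Normoxia against 2.35% (2.32 to 2.39) for Hypoxia. The log2 ratio was -0.29 (-0.33 to -0.25). Without the striated muscle cells the shares were 2.33% (2.27 to 2.39) and 2.24% (2.21 to 2.28), a log2 ratio of -0.05 (-0.10 to -0.01). The difference was thus smaller without 4 of the 225 cells. Within cluster 2 the log2 ratio was -0.55 with and -0.15 (-0.22 to -0.08) without them, while it was 0.09 (-0.00 to 0.19) in cluster 9 and -0.06 (-0.15 to 0.02) in cluster 10, which hold none. The share of the median cell was 2.29% in Normoxia and 2.30% in Hypoxia, with ranges of 0.799% to 3.53% and 1.30% to 4.63%, so that the cells of both libraries overlapped almost fully.

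The single members followed the same pattern. Of 83 nuclear members with at least 20 UMIs, 12 were at least 1.5-fold lower and 1 at least 1.5-fold higher in Hypoxia (13.9% and 20.6% of all genes), 10 had a ratio above 0 (54.9% of all genes), and the median log2 ratio was -0.34 against 0.08 for all genes. Without the striated muscle cells 2 of 80 were lower and 2 higher (13.3% and 19.4% of all genes), 31 had a ratio above 0 (54.6% of all genes), and the median was -0.08 against 0.07. The higher ones were Ndufs1 and the assembly factor Ndufaf2, with 5 and 25 UMIs, and the lower ones Ndufa1 and Ndufs8. Members past 1.5-fold without these cells were thus fewer, in both directions, than the share of all genes, and the members are among the better counted genes.

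The members with the lowest ratios in endothelial cell-like cells with all cells counted were Cox7a1, Cox8b, Cox6a2, Atp5g1 and Ndufs8. Cox7a1 had 233 and 34.5 CPM (-2.75, -3.55 to -2.01), Cox8b 83.2 and 16.4 CPM (-2.34, -3.60 to -1.18) and Cox6a2 204 and 64.1 CPM (-1.67, -2.31 to -1.03). These are the 3 muscle isoforms of complex IV, and without the striated muscle cells they had 0 and 1, 0 and 0, and 1 and 9 UMIs. Atp5g1, which encodes the proteolipid of the ATP synthase ring, had 499 and 271 CPM (-0.88, -1.23 to -0.53), but 252 and 211 CPM (-0.26, -0.72 to 0.22) without those cells. Ndufs8, an iron-sulphur core subunit of complex I, kept its difference, with 165 and 94.5 CPM (-0.80, -1.42 to -0.17) without them. Ndufa1, a small subunit of complex I, was at 247 and 164 CPM (-0.59, -1.08 to -0.10).

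**Figure D3:**
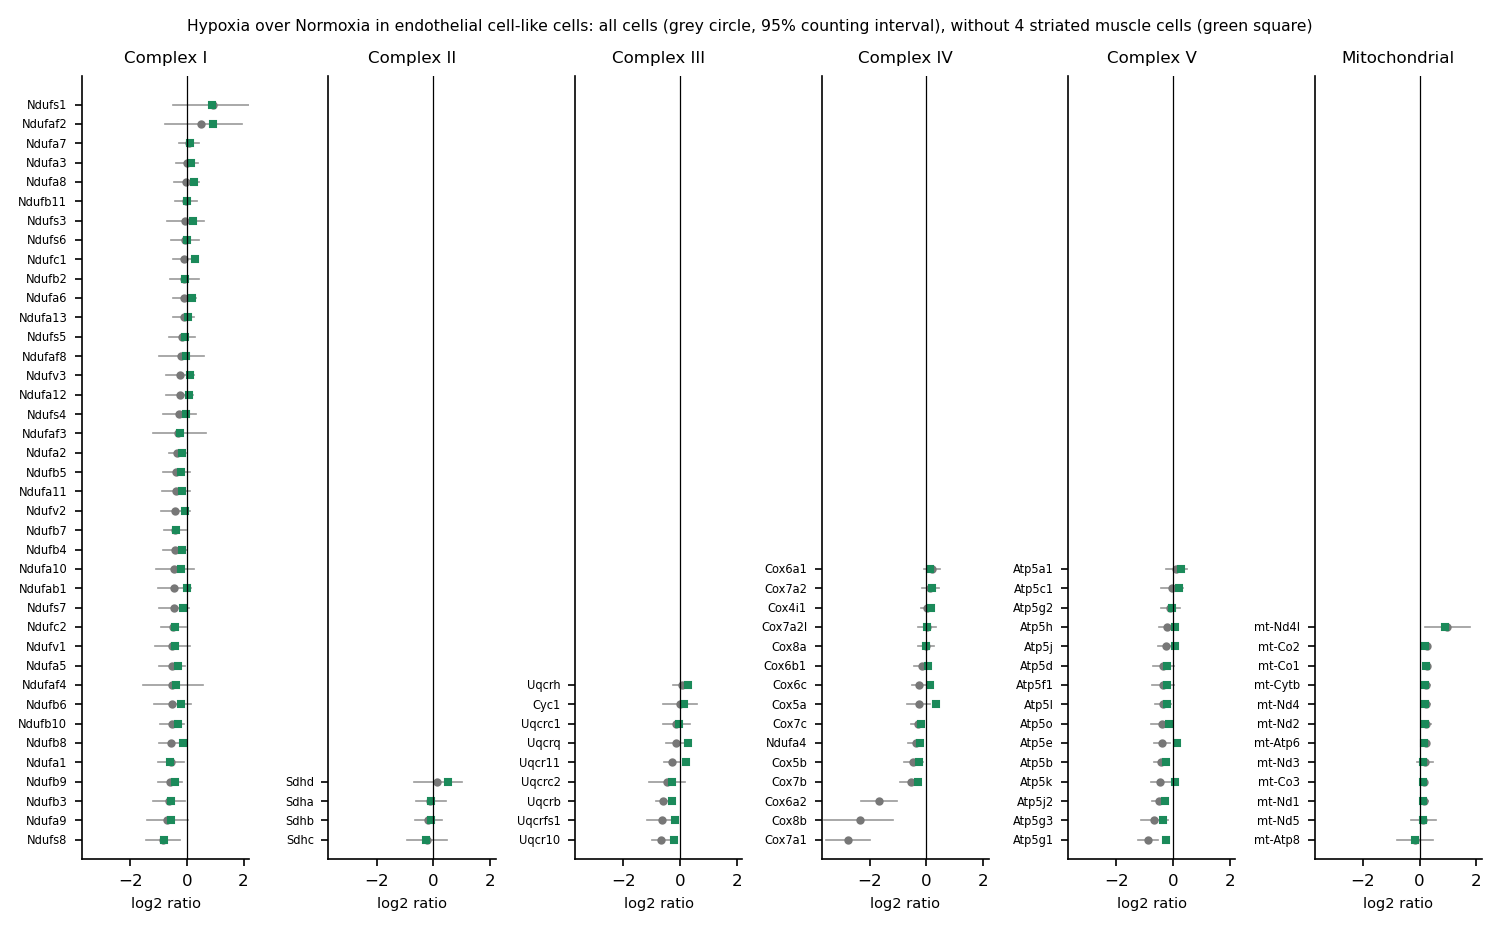
Log2 ratio of Hypoxia to Normoxia (x axis) of single members with at least 20 UMIs in endothelial cell-like cells, by complex, with assembly factors under complex I. Grey circles with bars give all cells with the 95% counting interval and green squares the value without the 4 striated muscle cells, where most nuclear members lie closer to 0 and Cox6a2, Cox7a1 and Cox8b fall under 20 UMIs.

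By complex, the largest of these differences without the striated muscle cells was in complex I, whose 36 nuclear subunits made up 0.745% of the UMIs in Normoxia and 0.686% in Hypoxia (log2 ratio -0.12, -0.20 to -0.04). The most counted subunits of complex I over all cells were Ndufa2, Ndufa13 and Ndufa7. In endothelial cell-like cells without striated muscle Ndufa2 had 490.5 and 434 CPM, Ndufa13 had 313 and 320 CPM and Ndufa7 had 373 and 408 CPM, and each interval of the ratio held 0. Ndufs1, a core subunit of the hydrophilic arm, was at 21.7 and 39.8 CPM, from 5 and 24 UMIs. The 8 assembly factors (Ndufaf genes), which help to build complex I and are not part of it, had 0.0273% and 0.0267% together.

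Complex II, which also acts in the citric acid cycle, has 4 subunits, all nuclear, with 0.0556% and 0.0541% of the UMIs. Its flavoprotein Sdha had 187 and 174 CPM, its iron-sulphur subunit Sdhb 208 and 197 CPM and the membrane anchor Sdhc 104 and 87.9 CPM. The 9 nuclear members of complex III had 0.269% and 0.271%. Within it Uqcrh, the hinge protein, had 425 and 516 CPM Uqcr11 had 412 and 473 CPM and Uqcrb had 569 and 471 CPM, so the members differed in both directions and each of these intervals held 0.

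Complex IV, with 17 nuclear members, had 0.639% in Normoxia and 0.646% in Hypoxia (log2 ratio 0.01, -0.07 to 0.10). Its most counted members were Cox4i1, Cox8a and Cox7c, with 764 and 862 CPM, 664 and 655 CPM, and 729 and 642 CPM. Cox7a2l, a relative of Cox7a that helps to form supercomplexes of complexes III and IV, was at 447 and 453 CPM. The 15 nuclear members of complex V had 0.590% and 0.561% (-0.07, -0.17 to 0.02). Atp5a1 and Atp5b, the alpha and the catalytic beta subunit of its head, had 291 and 351 CPM (0.27) and 664 and 555 CPM (-0.26), with intervals that held 0 in both cases. Atp5e, Atp5l and Atp5h, the most counted nuclear members of complex V over all cells, had 443 and 486 CPM, 586 and 502 CPM, and 495 and 517 CPM.

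Markers of other lung cells differed between the libraries within the same endothelial cell-like cells. Without striated muscle, the 6 markers of type 2 pneumocytes held 0.955% of the UMIs in Normoxia and 0.0922% in Hypoxia, and the 9 fibroblast markers 0.227% and 0.00746%. The 6 markers of club or ciliated cells held 3.07% and 2.53% and the 6 erythroid markers 0.0486% and 0.0209%. Smooth muscle markers (7 genes) were higher in Hypoxia, at 0.0313% and 0.0429% (log2 ratio 0.46, 0.08 to 0.86), and the 9 pericyte markers had 4 and 6 UMIs. The part of this in the ratios of the members was not tested.

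Isoform use in complex IV set the striated muscle cells apart from all others. They held 76 of all 83 UMIs of Cox7a1 (91.6%), 78 of 92 of Cox6a2 (84.8%) and 30 of 35 of Cox8b (85.7%), while being 0.536% of the retained cells. By cell, the UMIs of Cox7a1 were 30, 20 and 6 in the Normoxia cells and 20 in the Hypoxia cell, those of Cox6a2 were 11, 33, 4 and 30, and those of Cox8b were 8, 8, 4 and 10. All 4 cells had all 3 muscle isoforms. The ubiquitous Cox6a1 had 0, 0, 0 and 2 UMIs in them, against 586 and 645 CPM in the other endothelial cell-like cells. Cox7a2 and Cox8a were present beside their muscle counterparts, with 6, 6, 2 and 14 UMIs of Cox7a2 and 1, 9, 0 and 12 UMIs of Cox8a. In lymphocytes (clusters 3 and 7), which should lack it, Cox7a1 had 0 UMIs in 44 Normoxia cells, which allows a level of up to 14.5 CPM, and 1 UMI in 130 Hypoxia cells.

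The sequences before the starts of these isoform genes are shown because most UMIs of Cox7a1 and Cox8b were in the striated muscle cells, while their ubiquitous counterparts Cox7a2 and Cox8a were found in these and in other cells, and the ubiquitous Cox6a1 was nearly absent from them. They come from RefSeq for GRCm38.p6, the assembly of mm10, and each is the 250 bases before the listed start, 5′ to 3′ on the strand of the gene. The coordinates are chr7:30183921-30184170 on the plus strand for Cox7a1, chr9:79759854-79760103 on the minus strand for Cox7a2, chr7:140900447-140900696 on the minus strand for Cox8b, chr19:7217617-7217866 on the minus strand for Cox8a and chr5:115348959-115349208 on the minus strand for Cox6a1. Capitals mark matches, on either strand, to the motif of nuclear respiratory factor 1 (NRF1; GCGC and TGCGC with 1 base of any kind between), the core of ETS factors such as GABP (CCGGAAG) and the core of the HIF motif (ACGTG).
Cox7a1: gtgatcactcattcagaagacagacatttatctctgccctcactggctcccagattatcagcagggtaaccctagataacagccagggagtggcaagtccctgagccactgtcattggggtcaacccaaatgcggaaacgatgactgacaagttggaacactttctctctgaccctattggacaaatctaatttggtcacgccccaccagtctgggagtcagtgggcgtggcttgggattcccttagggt
Cox7a2: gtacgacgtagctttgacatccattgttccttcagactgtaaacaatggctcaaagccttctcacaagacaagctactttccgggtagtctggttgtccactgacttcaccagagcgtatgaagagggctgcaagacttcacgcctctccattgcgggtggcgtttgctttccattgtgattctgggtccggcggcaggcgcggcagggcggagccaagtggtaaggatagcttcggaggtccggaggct
Cox8b: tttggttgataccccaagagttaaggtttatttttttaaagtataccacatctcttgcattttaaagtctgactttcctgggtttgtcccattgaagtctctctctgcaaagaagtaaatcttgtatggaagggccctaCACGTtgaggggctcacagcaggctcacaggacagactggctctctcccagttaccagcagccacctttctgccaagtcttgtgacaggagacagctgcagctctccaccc
Cox8a: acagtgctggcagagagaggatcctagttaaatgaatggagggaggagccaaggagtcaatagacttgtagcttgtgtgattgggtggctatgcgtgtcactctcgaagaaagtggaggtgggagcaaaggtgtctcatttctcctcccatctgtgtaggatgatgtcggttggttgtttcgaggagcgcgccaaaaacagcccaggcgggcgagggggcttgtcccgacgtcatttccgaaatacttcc
Cox6a1: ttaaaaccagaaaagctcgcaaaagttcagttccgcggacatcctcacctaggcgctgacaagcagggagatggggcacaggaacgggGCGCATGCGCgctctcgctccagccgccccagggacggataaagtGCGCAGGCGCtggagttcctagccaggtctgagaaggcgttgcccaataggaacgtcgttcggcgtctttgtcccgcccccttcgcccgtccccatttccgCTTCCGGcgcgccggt

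Cox6a1 had 2 matches to the NRF1 motif and 1 to the ETS core in these 250 bases, and Cox8b had 1 match to the HIF core. The muscle isoforms held 4 (Cox7a1) and 1 (Cox8b) CG dinucleotides, and the ubiquitous isoforms 14 (Cox7a2), 11 (Cox8a) and 26 (Cox6a1). In the whole window of 250 bases before and 50 after the start, 74 of the 89 nuclear members were matched, not among them Ndufa4l2, Cox4i1 and Cox6a2. Over this whole window Cox7a1 also had a match to the HIF core and Cox8a a match to the ETS core. The NRF1 motif was in 18 of the 74 (24.3%) and in 6.60% of 17492 protein-coding genes, and the ETS core in 17 (23.0%) and 11.9%. The HIF core was in 18 (24.3%) and 20.7%, and the motif of the muscle factor MEF2 (CTA and TAG with 4 bases between) in 2 (2.70%) and 3.48%. A match is a description of the sequence and not evidence of binding, and matches to different motifs may overlap.

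Ndufa4l2, a paralogue of the complex IV subunit Ndufa4 and a known target of HIF, was confined mainly to cluster 5, which was led by Hhip and Igfbp3 and held 45 Normoxia and 6 Hypoxia cells with 6 fibroblast and 4 pericyte markers. The smooth muscle markers Acta2 and Tagln were also among the leading genes of cluster 5. Of 39 UMIs of Ndufa4l2 30 (76.9%) were in this cluster, 29 in Normoxia and 1 in Hypoxia. The 29 UMIs came from 4 cells, with 11 in the highest. Over all retained cells Ndufa4l2 had 27.0 and 5.65 CPM (log2 ratio -2.25, -3.51 to -1.14), and the cluster that carries it had 6 cells in the Hypoxia library. In the endothelial cell-like cells without striated muscle it had 0 UMIs in Normoxia, which allows a level of up to 13.02 CPM, and 6 UMIs in 5 Hypoxia cells. Cox4i2, the lung and pericyte isoform of subunit 4, which lies outside the rule for members, was similar, with 31 of 39 UMIs (79.5%) in cluster 5, 30 of them in Normoxia. Unlike the members, Cox4i2 was not kept out of the genes used for clustering, and it is in the list of pericyte markers. In cluster 5, 4 Normoxia cells had Ndufa4l2 and 8 had Cox4i2, and all 4 of the former had both. Within the cluster the levels of Ndufa4l2 were 204 and 59.4 CPM, where 1 UMI gives the second value. Of 65 nuclear members tested in cluster 5, 5 were at least 1.5-fold higher and 23 lower (15.4% and 29.7% of all genes), and 25 had a ratio above 0 (44.8%), with 6 Hypoxia cells behind these ratios.

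Cox6b2, known as the testis isoform of subunit 6b, had 50 UMIs in all. Cluster 14 held 20 of them (40.0%), in 9 of its 15 cells, a level of 241 CPM. Fibroblast-like cells held 18 of the 50, with 54.1 CPM in Normoxia and 61.7 CPM in Hypoxia. It had 0 UMIs in clusters 3 and 7. Ndufa4 itself was found in each cluster with at least 20 cells in both libraries and was at 686 and 585 CPM in the endothelial cell-like cells without striated muscle (-0.23, -0.50 to 0.05).

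**Figure D4:**
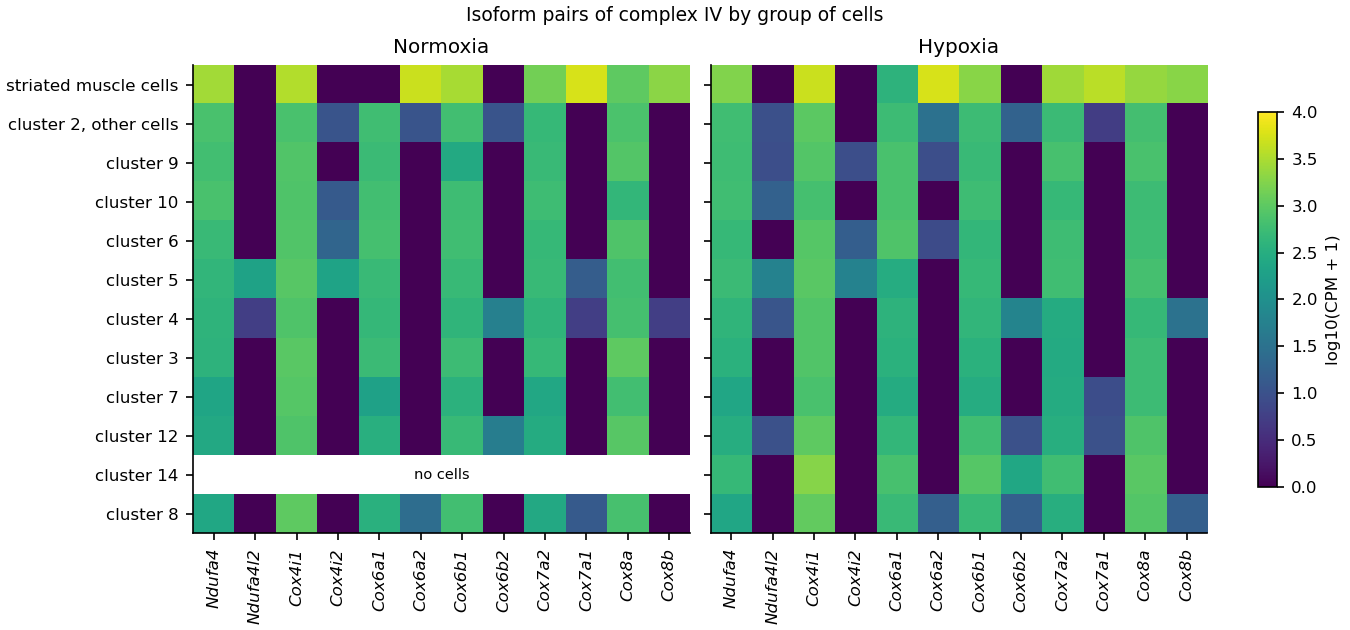
Level of complex IV isoforms as log10(CPM + 1) (colour) in Normoxia (left) and Hypoxia (right), by gene (x axis, each ubiquitous form followed by its tissue form) and group of cells (y axis). Cox6a2, Cox7a1 and Cox8b are high in the striated muscle cells, Ndufa4l2 and Cox4i2 in cluster 5 and Cox6b2 in cluster 14, and CPM of groups with few cells rest on few UMIs.

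The 13 mitochondrial members were higher in Hypoxia as a group. Over all retained cells they held 3.07% (3.04 to 3.11) of the Normoxia UMIs and 3.31% (3.29 to 3.34) of the Hypoxia UMIs (log2 ratio 0.11). In endothelial cell-like cells the shares were 2.81% and 3.24% (0.21, 0.17 to 0.25), and 2.91% and 3.27% (0.17, 0.13 to 0.21) without striated muscle. The medians over these cells were 2.86% and 3.29%, with ranges of 1.12% to 4.96% and 0.974% to 4.995%, so the cells of the libraries overlapped widely. In cluster 6 the shares were 2.86% and 3.34% (0.23, 0.16 to 0.29). Fibroblast-like cells had 2.99% and 3.12% (0.06, -0.00 to 0.12) and B cell-like cells 3.83% and 3.81% (-0.01, -0.06 to 0.05). Without the deepest cell of each library the B cell-like cells had 3.84% and 4.03% (0.07, 0.01 to 0.13), so that the direction turned. T or NK cell-like cells had 3.10% and 3.31% (0.10, 0.02 to 0.17). Without the deepest cell of each library they had 3.36% and 3.35% (-0.01, -0.09 to 0.08). Macrophage or monocyte-like cells had 2.50% and 3.24% (0.37, 0.28 to 0.47), and cluster 12 alone 2.50% and 3.03% (0.28, 0.18 to 0.38).

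The filter acts on these same genes, since barcodes above 5% mitochondrial UMIs were left out. This removed 51 barcodes (13.7%) of the Normoxia and 141 (23.0%) of the Hypoxia library. Without the maximum the shares over all cells were 3.44% and 4.10% (0.25, 0.24 to 0.27), and with a maximum of 10% they were 3.28% and 3.76% (0.20). The nuclear shares without the maximum were 2.19% and 2.11%. A high mitochondrial share is also a common sign of a damaged cell, and its part in this difference was not tested.

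By gene, 11 of the 12 mitochondrial members with at least 20 UMIs had a ratio above 0 in endothelial cell-like cells without striated muscle (54.6% of all genes), with a median log2 ratio of 0.18. The most counted over all cells were mt-Atp6 of complex V and mt-Co3 and mt-Co1, core subunits of complex IV. In these cells mt-Atp6 had 7049.6 and 7922 CPM (0.17, 0.09 to 0.25), mt-Co3 5269.9 and 5750.1 CPM (0.13, 0.03 to 0.22) and mt-Co1 3277 and 3797 CPM (0.21, 0.09 to 0.33). The complex I gene mt-Nd4l had the highest ratio, at 78.1 and 146 CPM (0.90, 0.16 to 1.72) from 18 and 88 UMIs, and mt-Atp8 was the single one below 0. In cluster 6 mt-Co1 stood apart from mt-Atp6, with 2266 and 3449 CPM (0.61, 0.38 to 0.84) against 7886 and 8027 CPM (0.03, -0.11 to 0.16). There mt-Co1 made up 7.93% (6.98 to 8.96) of the mitochondrial UMIs in Normoxia and 10.3% (9.46 to 11.2) in Hypoxia. In B cell-like cells mt-Co1 was at 5799 and 5238 CPM (-0.15, -0.29 to 0.00) and mt-Cytb, the core of complex III, at 3196 and 3789 CPM (0.25, 0.06 to 0.43), and the complex I gene mt-Nd3 had 55 and 82 UMIs (0.75). The composition over all cells was close in both libraries, with 76.6% and 75.8% of the mitochondrial UMIs from mt-Atp6, mt-Co3, mt-Co1, mt-Nd1 and mt-Cytb.

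**Figure D5:**
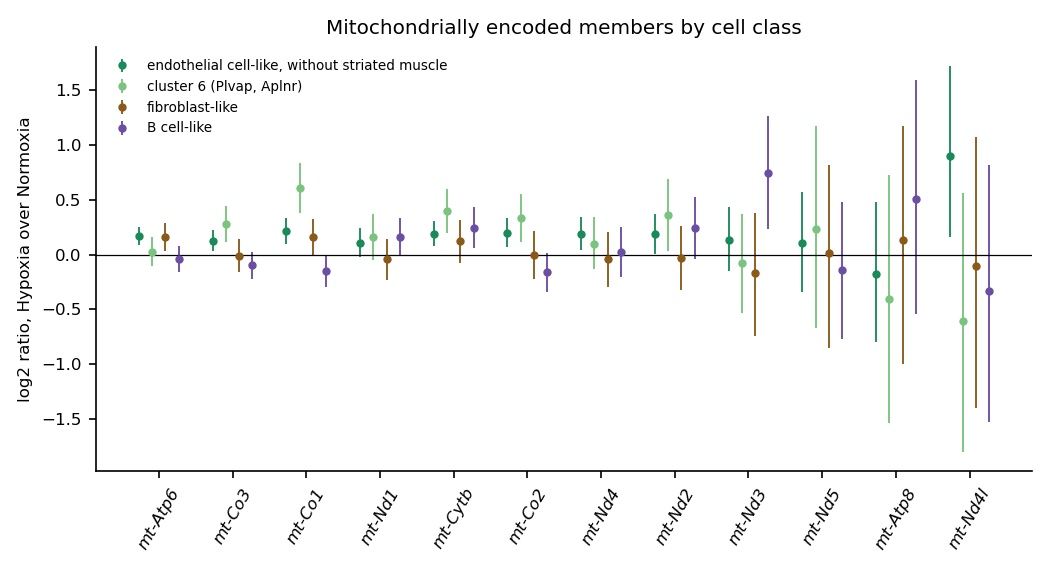
Log2 ratio of Hypoxia to Normoxia (y axis) of each mitochondrial member with at least 20 UMIs (x axis, from the highest to the lowest level), in endothelial cell-like cells without striated muscle, cluster 6, fibroblast-like and B cell-like cells, with 95% counting intervals as bars. In endothelial cell-like cells 11 of 12 points lie above 0, and in cluster 6 the point of mt-Co1 is at 0.61 while that of mt-Atp6 is at 0.03.

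In cluster 6 the nuclear share was 2.33% in Normoxia and 2.30% in Hypoxia (log2 ratio -0.02, -0.09 to 0.06). Of 76 nuclear members tested there, 2 were at least 1.5-fold higher and 9 at least 1.5-fold lower (14.1% and 18.1% of all genes), and 41 had a ratio above 0. Of the 9, 8 were subunits of complex I, which made up 35 of the 76, and this was not tested. Ndufa11 was at 289 and 153 CPM (-0.92, -1.80 to -0.07) and Ndufb7 at 376 and 211 CPM (-0.83, -1.58 to -0.10), both small subunits of complex I. Cox7a2l was at 309 and 525 CPM (0.77, 0.15 to 1.42). All 9 nuclear members of complex III had ratios above 0, from 0.01 to 0.46, against 48.3% of all genes, and each single interval held 0. In the endothelial cell-like clusters without striated muscle 4 of these 9 were above 0.

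Fibroblast-like cells had nuclear shares of 1.98% and 1.89% (-0.07, -0.15 to 0.01). Of 74 members 3 were higher and 9 lower by 1.5-fold (14.6% and 22.1% of all genes) and 34 had a ratio above 0 (41.3%). Atp5b, the catalytic beta subunit of the ATP synthase, was at 424 and 267 CPM (-0.67, -1.35 to -0.03). B cell-like cells had 1.55% and 1.48% (-0.07, -0.15 to 0.02), with medians of 4114 and 1862 UMIs per cell. Without the deepest cell of each library the ratio of B cell-like cells changed sign, to 0.03 (-0.06 to 0.12). Of 65 members 9 were higher and 4 lower (25.9% and 13.9% of all genes), and 31 had a ratio above 0 (56.9%). Higher were Sdha, at 27.3 and 130 CPM from 4 and 17 UMIs (2.26, 0.64 to 4.29), Cyc1, the cytochrome c1 of complex III, at 47.7 and 153 CPM (1.69, 0.39 to 3.17), and Atp5g3 at 61.3 and 161 CPM (1.39, 0.21 to 2.70). Lower were Ndufa2, at 470.2 and 284 CPM (-0.73, -1.35 to -0.13), and Uqcrh, at 668 and 437 CPM (-0.61, -1.11 to -0.13).

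In T or NK cell-like cells, with 13 Normoxia and 76 Hypoxia cells, the nuclear share was 2.24% and 1.79% (-0.32, -0.40 to -0.23). 1 Normoxia cell with 17959 UMIs held 30.0% of the UMIs of its class, had 9 endothelial and 8 T or NK markers and a nuclear share of 3.18%. Without the deepest cell of each library the shares were 1.83% and 1.75% (-0.07, -0.18 to 0.04). Of 71 members 8 were higher and 19 lower with all cells counted (17.8% and 20.9% of all genes), and 20 had a ratio above 0 (45.4%). In macrophage or monocyte-like cells the shares were 1.98% and 2.43% (0.30, 0.19 to 0.41), but cluster 14 had cells in the Hypoxia library alone, and in cluster 12, which both libraries share with 9 and 20 cells, they were 1.98% and 2.12% (0.10, -0.01 to 0.22). Of 74 members in the whole class 27 were higher and 2 lower (33% and 13% of all genes), and 50 had a ratio above 0 (58.3%). In cluster 8 (19 and 10 cells) they were 1.80% and 2.02% (0.17, 0.06 to 0.28).

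Other genes of mitochondrial energy metabolism were read from lists in the same endothelial cell-like cells without striated muscle. Over all genes in these cells 19.4% were at least 1.5-fold higher and 13.3% at least 1.5-fold lower, and 54.6% had a ratio above 0. Of 14 electron carriers and transporters 1 was higher and 1 lower by this size (19.4% and 13.3% of all genes), with a median log2 ratio of -0.16 against 0.07 for all genes. These were Ucp2, an inner membrane carrier, at 395 and 618 CPM (0.65, 0.31 to 0.99), and Vdac1, the outer membrane channel, at 187 and 92.9 CPM (-1.01, -1.61 to -0.40). Of 16 citric acid cycle enzymes 1 was higher and 4 lower (19.4% and 13.3% of all genes, median -0.15), among them Suclg1, a succinyl-CoA ligase subunit, at 143 and 59.7 CPM (-1.26, -1.99 to -0.54). Of 13 mitochondrial genes linked to hypoxia 8 were tested, with 1 higher and 1 lower (median 0.17), and the higher one was Bnip3, a mitophagy receptor and HIF target, at 39.1 and 191 CPM (2.29, 1.31 to 3.45) from 9 and 115 UMIs.

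Of 13 regulators of mitochondrial gene expression 5 were tested, with 1 higher and 1 lower (median -0.23), and Slirp, which stabilizes mitochondrial mRNA, was at 156 and 96.2 CPM (-0.70, -1.32 to -0.06). Of 37 assembly factors outside the rule for members 17 were tested, with 5 higher and 1 lower (19.4% and 13.3% of all genes, median 0.11), the lower one being the complex II factor Sdhaf1 with 14 and 14 UMIs, or 60.8 and 23.2 CPM (-1.39, -2.57 to -0.21). Mitochondrial ribosomal proteins (68 of 78 tested) had 6 higher and 8 lower (19.4% and 13.3% of all genes) and a median of -0.09. Cytosolic ribosomal proteins (81 of 84) had 0 of either, 73 ratios above 0 (54.6% of all genes) and a median of 0.22. Among the mitochondrial ones Mrps28 had 26.0 and 73.0 CPM (1.49, 0.25 to 3.01) from 6 and 44 UMIs. Mrps21 (252 and 158 CPM), Mrpl48 (126 and 63.0 CPM) and Mrpl36 (117 and 66.3 CPM) were lower, with log2 ratios of -0.68, -0.999 and -0.82. In cluster 6 the cytosolic ribosomal proteins had a median of 0.48 (-0.03 for all genes) with 26 of 81 higher (14.1% of all genes). In the endothelial cell-like cells the nuclear members of oxidative phosphorylation (median -0.08) were closer to the mitochondrial ribosomal proteins. This was also so in cluster 6 (0.02, against -0.22) and B cell-like cells (-0.01, against 0.06). They were closer to the cytosolic ones over all cells without striated muscle, with -0.01 against 0.01 (mitochondrial ones -0.08). The same held in fibroblast-like cells, with -0.03 against -0.06 (mitochondrial ones -0.34).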

How the data were processed

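Single-cell RNA sequencing libraries were made with the Chromium 3' v3.1 chemistry. The deposited matrices hold UMI counts of each gene in each barcode, not normalized, which per the file headers came from Cell Ranger 3.1.0; per the labels the build was mm10. Amplification copies were already collapsed, and a count marks 1 transcript end, so CPM was not scaled by gene length. The labels mention 3 replicates, but 1 matrix per group was analysed. The study's text describes lungs of 3 wild-type animals in hypoxia, depleted of CD45 and CD326 cells, whereas the labels describe a tdTomato sort from NG2tdT mice.

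Barcodes were retained if they had 200 to 6000 genes and no more than 5% mitochondrial UMIs, and were clustered together with scanpy 1.11.5 (log-normalization to 10000 UMIs, 2000 variable genes without the members and all mitochondrial genes, 15 components, 15 neighbours, Leiden resolution 1.0). A marker counted when detected in at least 25% of the cells of a cluster and at 2 times the median CPM over clusters. A name needed at least 3 markers of its class, more than of any other of the 18 classes, and no other class with more markers among the 10 leading genes. Doublets were not removed; Scrublet marked 1 Normoxia and 2 Hypoxia cells (0.341% and 0.442%).

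UMIs were summed per library and class. Intervals at 95% are exact (Poisson, Clopper-Pearson, conditional binomial; scipy 1.17.1) and cover counting error alone; for a group at 0 the limit is 3 UMIs over that group. Genes with at least 20 UMIs in the cells compared entered each count, and 1.5-fold is a size, not a test. The ratio intervals were run on simulated Poisson counts, the model they assume, so spread between cells or animals was not checked. They held the true ratio for 96.0% of genes, and for 68.2% of the genes changed 2-fold they left out 0 on the true side. Members, lists and markers were chosen with earlier results of these data known; the muscle genes were listed after the data had been seen, and a cell with at least 6 of 26 was taken as striated muscle. The text names the 3 members of each complex with the highest mean CPM over all retained cells, and members whose ratio had an interval without 0 (up to 5 in each direction in endothelial cell-like cells, up to 3 over all cells and in each class with at least 20 cells per library, to which cluster 6 was added). It also names the isoforms of complex IV, and list genes past 1.5-fold whose interval left out 0; others illustrate their complex and were chosen after their values were seen. Alternatives were other mitochondrial and gene maximums, resolutions, components, denominators, weights, thinning, minimums, marker-gated cells, doublet removal and removal of single cells. Values of 1 member that the rule would name are not reported here. Of the promoter windows of a gene, the first listed was printed.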

Additional observations from a re-analysis of the deposited data

Results flagged for a closer look

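The barcodes above the mitochondrial maximum enter the report only where the maximum was raised or dropped. Their high mitochondrial share is set by the filter that left them out, so it is a description. The 51 Normoxia barcodes had 7.90% (7.73 to 8.08) of their UMIs from mitochondrial members and the 141 Hypoxia barcodes 7.99% (7.89 to 8.08), with medians of 1306 and 1619 UMIs per barcode. They were looked at again because they lie outside the retained cells. Their nuclear members made up 2.05% and 2.02% of the UMIs, near the 2.197% and 2.13% of the retained cells. The highest mitochondrial share of a single barcode was 28.5% in Normoxia and 26.1% in Hypoxia.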

How the results depend on the processing

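No paired analysis was possible because each group had 1 library and the labels give no replicate numbers. The values that follow are log2 ratios of Hypoxia to Normoxia, with the nuclear share, the mitochondrial share and the median of single nuclear members taken in endothelial cell-like cells unless stated. The mitochondrial share was higher in Hypoxia under all 15 alternatives run in these cells (0.17 to 0.30) and all 10 over all cells (0.06 to 0.25), and the nuclear share was lower under all 16 in endothelial cell-like cells (-0.37 to -0.02). Without the striated muscle cells the nuclear share was -0.0522, the mitochondrial share 0.17, the median -0.0792, and 2 members were higher and 2 lower, while the nuclear share over all cells reversed to 0.0103. With cluster 6 added as well, the nuclear share was -0.0461, the median -0.0527, and 2 members were lower. With a mitochondrial maximum of 10% the nuclear share was -0.21, the mitochondrial share 0.28 (0.20 over all cells), the median -0.22, and 7 members were lower. Without a maximum the values were -0.0422, 0.30 (0.25 over all cells) and -0.0338, with 3 lower. At resolution 0.5 the nuclear share was -0.22 and the median -0.23, with 7 lower, and at resolution 1.5 they were -0.0486 and -0.12, with 4 higher and 3 lower. With 30 components they were -0.0214 and -0.0408, with 3 lower, and with cells chosen one by one by markers -0.0793 and -0.0691, with 3 lower. The striated muscle cells had 0 endothelial markers, so they could not be among cells chosen one by one, which needed at least 3. Changes of denominator, weight, thinning or member minimum kept the striated muscle cells. Without cells marked by Scrublet they were -0.21 and -0.21. Without the cell with the most member UMIs the nuclear share was -0.23. With equal weight per cell the mitochondrial share was 0.17 (0.0553 over all cells) and the nuclear share over all cells -0.0895. Thinned to 1000 UMIs per cell, the nuclear share was -0.37 (-0.11 over all cells), with 21 lower. With a gene maximum of 4000 the mitochondrial share over all cells was 0.0846. With a member minimum of 10 UMIs 2 members were higher, and with 50 UMIs 0 were higher. Of these alternatives, the share of all genes past 1.5-fold was counted only for the removal of the striated muscle cells. The counts of members under the others, thinning included, therefore have no background beside them. Changes of filter or clustering also changed which cells were called endothelial cell-like, and apart from the removal of named cells the cause of each change was not tested. With 1 library per group, differences between animals cannot be told apart from differences between conditions, and single members with under 50 UMIs have wide intervals.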
